A study of Mus musculus with 8 samples.

Results

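The expression table held 54232 gene rows, and the 5 genes described here were taken from it by symbol: the metallothioneins Mt1 and Mt2, the metal sensor Mtf1, the zinc exporter Slc30a1 and the zinc importer Slc39a10. All 5 were found and all 5 passed the filter on low values. RNA was sequenced from 3 libraries of mouse cells exposed for 3 h to C28, a compound known here by a code name (028 in the sample titles), and from 3 libraries of cells given the solvent DMSO. Both groups were of C57BL/6 background, carried the label of female germline stem cells, which are dividing germ cells cultured from the ovary, and shared every other label. No dose is given, and the labels do not say whether the replicates were separate cultures, so each p-value reflects the scatter among libraries that may be technical repeats.

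Zinc is needed by many enzymes and transcription factors but is held at a very low free level in the cytosol. Metallothioneins are small cysteine-rich proteins that bind zinc, copper and cadmium and can also take up oxidants. MTF1 is a zinc finger transcription factor that senses free zinc and binds metal response elements, through which it switches on metallothionein genes and Slc30a1 when zinc is high. In mouse it is also known to hold down Slc39a10. Transporters of the SLC30 family (ZnT) move zinc out of the cytosol, and those of the SLC39 family (ZIP) move it in.

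The RNA libraries held 16930212 to 17428321 gene-assigned reads with C28 and 18613916 to 19197376 with DMSO. The cell label was checked against marker genes. Of 13 germline markers, 5 had 0 reads in all libraries (Dppa3, Pou5f1, Tfap2c, Sohlh1 and Figla) and 2 averaged 10 or more normalized counts, and Ddx4, a germ cell RNA helicase, had 4 reads in total. Of 12 mast cell and blood markers 9 averaged 10 or more, although Fcer1a and Tpsb2 had 0 reads and Ms4a2 had 3 in total. The highest counts of the list were those of Gata2 (mean 23743) and Kit (mean 20987). The summed level of that list was 61629 to 65084 normalized counts in C28 libraries and 66107 to 71658 in DMSO libraries. The labelled cell type is therefore not borne out by its defining markers.

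The promoters of Mt1, Mt2 and Slc30a1 are shown because they held the metal response element within the window searched. Sequences are from RefSeq on GRCm38.p6, 250 bases up to the base before the start site, 5′ to 3′ on the strand of the gene. Capitals mark matches to TGCACNC or TGCGCNC on either strand.
Mt1 (chr8:94178839-94179088, plus strand): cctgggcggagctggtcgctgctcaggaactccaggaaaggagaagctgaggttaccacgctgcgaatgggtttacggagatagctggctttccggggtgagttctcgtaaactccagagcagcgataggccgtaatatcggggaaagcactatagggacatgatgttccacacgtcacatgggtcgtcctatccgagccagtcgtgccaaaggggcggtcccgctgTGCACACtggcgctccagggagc
Mt2 (chr8:94172368-94172617, plus strand): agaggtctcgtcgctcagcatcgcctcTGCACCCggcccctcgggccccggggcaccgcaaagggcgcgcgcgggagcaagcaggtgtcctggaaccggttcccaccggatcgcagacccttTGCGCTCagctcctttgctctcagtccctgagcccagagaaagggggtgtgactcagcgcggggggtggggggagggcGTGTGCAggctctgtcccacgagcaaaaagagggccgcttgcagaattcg
Slc30a1 (chr1:191906531-191906780, plus strand): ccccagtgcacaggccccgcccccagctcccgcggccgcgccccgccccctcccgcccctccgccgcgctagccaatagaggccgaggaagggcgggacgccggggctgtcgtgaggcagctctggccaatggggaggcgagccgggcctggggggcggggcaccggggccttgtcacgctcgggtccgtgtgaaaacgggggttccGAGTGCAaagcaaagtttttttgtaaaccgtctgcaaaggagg

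Counted over 250 bases before and 50 bases after the start site, Mt2 had 4 matches, Mt1 had 3 and Slc30a1 had 2. In Mt1 the matches began 23 bases before the start (TGCACAC) and at bases 3 (TGCACTC) and 21 (TGCGCTC) after it. In Slc30a1 they began 43 bases before and at base 31 after. Of 32817 promoter windows of this length, 25.7% held at least 1 match, 7.12% at least 2, 1.97% at least 3 and 0.518% at least 4. Mtf1, with 1 start site, and Slc39a10, with 2, had no match in these windows. An antioxidant response element, TGACNNNGC on either strand, was matched once in Mt2 (TGACTCAGC, from 79 bases before the start) and once in Slc30a1 (from 82 bases before), against 12.4% of all windows with at least 1, and overlapped no metal response element. A heat shock element, GAANNTTC or TTCNNGAA, was found in 0 of the 5 genes' windows and in 15.1% of all windows. These matches are descriptions of letters in a short window placed by the RefSeq start site. Distal elements, and sequence more than 50 bases after that start, were not searched. The counts, and the absence of a match, hold for this window only and not for the whole promoter of a gene.

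With C28, RNA of the zinc exporter Slc30a1 was 1.64 times its level with DMSO, while both metallothioneins, Mtf1 and Slc39a10 had fitted folds between 0.909 and 1.09. The question was which of these genes differed between C28 and DMSO, and the test was limma on log2(normalized count + 1), with p-values adjusted by Benjamini and Hochberg over 19054 genes. None of the 5 passed an adjusted p of 0.05, where 0.136% of all genes did, and 1 of the 5 (Slc30a1) lay at an unadjusted p under 0.05, as did 7.83% of all genes. Same-numbered C28 and DMSO libraries deviated together, so the fit was repeated with the replicate number as a block. With the block Slc30a1 rose and the other 4 did not pass, where 4.8% of all genes passed and 2.55% rose.

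**Figure D1:**
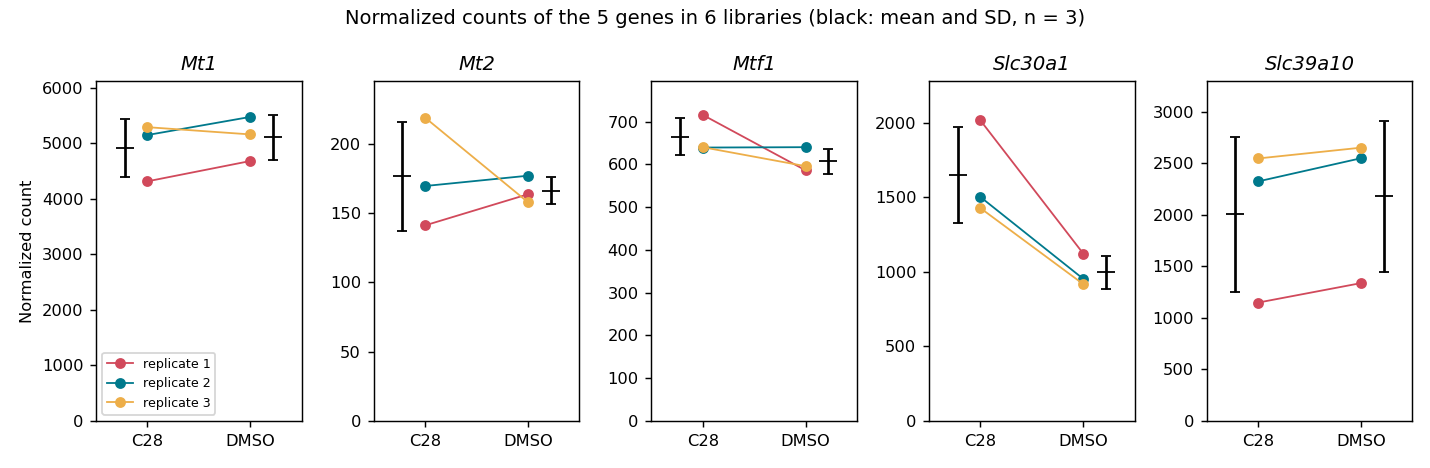
Normalized count (vertical axis, from 0) of each gene in the 3 C28 and 3 DMSO libraries, with lines joining libraries of the same replicate number and black bars giving mean and SD. The C28 libraries of Slc30a1 (1428 to 2016) lie above its DMSO libraries (917 to 1122), the groups of the other 4 genes overlap, and replicate 1 of Slc39a10 is low in both groups.

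Slc30a1 (ENSMUSG00000037434) encodes ZnT1, the zinc exporter of the plasma membrane. It had 2016, 1502 and 1428 normalized counts in C28 replicates 1, 2 and 3, against 1122, 953 and 917 in DMSO replicates 1, 2 and 3. Every C28 library was above every DMSO library, as was the case for 8.16% of the genes tested. Within same-numbered pairs the ratio of C28 to DMSO was 1.80, 1.58 and 1.56. Replicate 1 was the highest library of its group in both arms. The means were 1649 ± 320.4 with C28 and 997 ± 109 with DMSO (SD, n = 3 each), from 1389 to 1943 reads per C28 library and 959 to 1200 per DMSO library. The log2 fold change was 0.71 with a 95% confidence interval from 0.38 to 1.05 (SE 0.14, limma unadjusted p 0.00133 and adjusted p 0.206). In the blocked fit the interval was 0.58 to 0.85 (SE 0.06, adjusted p 0.000111 by limma).

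The call for Slc30a1 differed between tests. On the reads recovered from the table, DESeq2 without a block called it (log2 fold change 0.73, adjusted p 0.00118), where it called 1.51% of genes. The quasi-likelihood test of edgeR without a block did not (log2 fold change 0.73, adjusted p 0.174), and with the block it did (adjusted p 3.2e-06), where 0.233% and 9.92% of genes were called. In the authors' deposited table the log2 fold change of Slc30a1 is 0.54 with an adjusted p of 0.00117. Being from the same 6 libraries, that call is not separate support. The same table gives an adjusted p of 0.999 for each of Mt1, Mt2, Mtf1 and Slc39a10.

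Mt1 (ENSMUSG00000031765), the main inducible metallothionein of mouse together with Mt2, had 4315, 5149 and 5290.4 normalized counts in C28 replicates 1 to 3. In DMSO replicates 1 to 3 it had 4681, 5475 and 5159.8. The groups overlapped, and the lowest library of each was replicate 1. C28 was above DMSO in 1 of 3 pairs, with ratios of 0.922, 0.940 and 1.03. Means were 4918 ± 527 with C28 and 5105 ± 399.9 with DMSO (SD, n = 3 each). The log2 fold change was -0.06 with a 95% confidence interval from -0.28 to 0.17 (limma adjusted p 0.964), which spans 0.822-fold to 1.12-fold. In the blocked fit it ran from -0.16 to 0.05, or 0.895-fold to 1.03-fold (adjusted p 0.578 by limma).

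Mt2 (ENSMUSG00000031762) encodes the neighbouring, closely related metallothionein, and reads may have been divided between these similar genes, so the division between them is uncertain. It had 141, 169.5 and 219 normalized counts in C28 replicates 1 to 3, against 164, 177 and 158 in DMSO replicates 1 to 3. The C28 libraries spread to both sides of the DMSO ones, with replicate 3 the highest and replicate 1 the lowest of all 6. Ratios within pairs were 0.863, 0.958 and 1.39. Means were 177 ± 39.4 with C28 and 166 ± 9.83 with DMSO (SD, n = 3 each). The C28 spread was 22.3% of the mean, against 6.85% to 8.58% that counting alone gives at 136 to 213 reads. The log2 fold change was 0.07 with a 95% confidence interval from -0.35 to 0.48 (limma adjusted p 0.986), or 0.784-fold to 1.40-fold. With the block it ran from -0.25 to 0.38 (adjusted p 0.869 by limma).

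The other metallothioneins were close to absent. Mt3, known mainly from brain, had 1 read in C28 replicate 3 and 0 elsewhere. Mt4, known from stratified epithelia, had 1 read in the C28 group and 6 reads in the DMSO group. Neither passed the filter, so 2 of 4 metallothioneins were tested. In limma 0 passed with or without the block and 0 lay at an unadjusted p under 0.05 without it, and edgeR and DESeq2 also called 0.

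Mtf1 (ENSMUSG00000028890) had 716, 639.6 and 640.4 normalized counts in C28 replicates 1 to 3 and 586, 640.4 and 596 in DMSO replicates 1 to 3. The groups overlapped, with the highest value in C28 replicate 1 and the lowest in DMSO replicate 1. Ratios within pairs were 1.22, 0.999 and 1.07. Means were 665 ± 43.9 with C28 and 608 ± 28.9 with DMSO (SD, n = 3 each), a log2 fold change of 0.13 with a 95% confidence interval from -0.07 to 0.33 (limma adjusted p 0.82). With the block the interval was -0.03 to 0.29 (adjusted p 0.4 by limma).

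Slc39a10 (ENSMUSG00000025986) encodes ZIP10, a zinc importer of the plasma membrane. It had 1148, 2323 and 2546 normalized counts in C28 replicates 1 to 3 and 1337, 2548 and 2651 in DMSO replicates 1 to 3. Replicate 1 was low in both groups, at 0.494 of the mean of replicates 2 and 3. C28 was below DMSO in each of the 3 pairs, with ratios of 0.858, 0.912 and 0.961. Means were 2006 ± 751 with C28 and 2179 ± 731 with DMSO (SD, n = 3 each). The log2 fold change was -0.14 with a 95% confidence interval from -0.97 to 0.69 (limma adjusted p 0.985). With the block the interval narrowed to -0.25 to -0.02 and the unadjusted p was 0.0236, but the gene missed the threshold after adjustment (adjusted p 0.185 by limma). In that blocked fit 3463 of 19054 genes lay at an unadjusted p under 0.05, so such a value was common.

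Summed markers of other cell types also differed with replicate number and were lowest in replicate 1 of each group. The summed level of 6 fibroblast and feeder markers was 1077, 1563 and 2636 normalized counts in C28 replicates 1 to 3 and 1013, 1713 and 2414 in DMSO replicates 1 to 3. These sums rose stepwise from replicate 1 to replicate 3, unlike Slc39a10, whose replicates 2 and 3 were close. None of these 6 was at 0, but Lum had 2 reads in all, and the sums came mainly from Dcn (mean 1353, against 1736 for the list). For 4 macrophage markers the sums were 933, 2217 and 1919 with C28 and 938, 2513 and 2123 with DMSO. None of the 4 was at 0, but Csf1r had 11 reads in all and Lyz2 87, so the sums came mainly from Adgre1 and Cd68. Whether cells of these types were present, and their part in the low Slc39a10 of replicate 1, was not tested. In bulk RNA fewer cells of a type and less RNA per cell cannot be told apart.

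**Figure D2:**
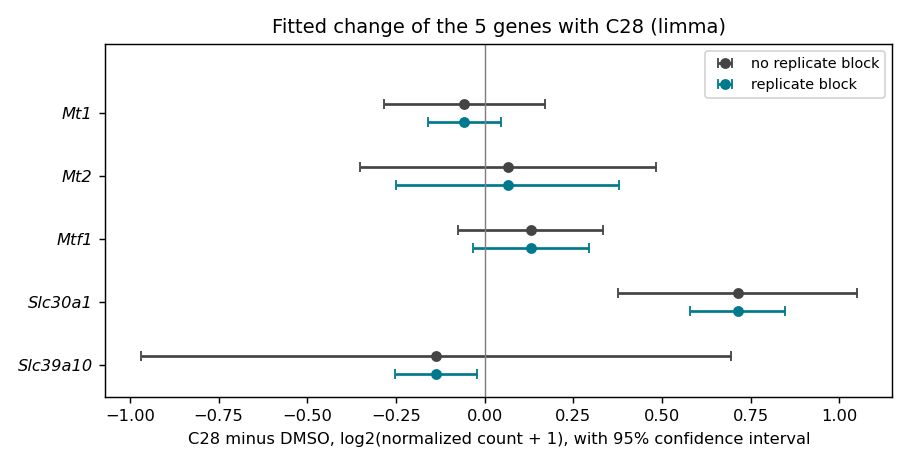
Fitted log2 difference between C28 and DMSO (horizontal axis) for the 5 genes, with 95% confidence intervals from limma without (grey) and with (teal) the replicate block. The Slc30a1 intervals lie above 0 in both fits, from 0.38 to 1.05 and from 0.58 to 0.85, and those of Mt1, Mt2 and Mtf1 include 0 in both.

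The level of Slc30a1 relative to the other genes was described by the log2 ratio between genes within each library. The ratio of Slc30a1 to Mt1 was -1.10, -1.78 and -1.89 in C28 replicates 1 to 3, against -2.06, -2.52 and -2.49 in DMSO replicates 1 to 3. The groups did not overlap, and the ratio was 1.71 times higher with C28 (exact permutation p = 0.1, two-sided, the smallest that 3 against 3 libraries can give). Against Mtf1 the ratio was 1.50 times higher, also without overlap (exact permutation p = 0.1). Against Mt2 it was 1.57 times higher (exact permutation p = 0.2) and against Slc39a10 1.80 times higher (exact permutation p = 0.3), and in both the groups overlapped. Adjusted over these 4 comparisons the exact permutation p-values were 0.2, 0.267, 0.2 and 0.3 for Mt1, Mt2, Mtf1 and Slc39a10. Since the smallest possible p of 0.1 lies above the threshold used for genes, no comparison could have passed. The permutation p-values therefore cannot decide whether Slc30a1 moved apart from these genes. They also took no account of the replicate number. Each of the 4 ratios was higher with C28 in 3 of 3 pairs. All 4 share Slc30a1, itself higher with C28 in every pair by more than any other member. The 4 outcomes therefore followed from values given above and are not separate support.

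The other exporters of zinc did not pass. Of 11 listed, 7 were tested, and apart from Slc30a1, described above, 6 did not pass in either limma fit. The list's median log2 fold change was 0.07, against 0.00425 over all genes tested, and the member next to Slc30a1, Slc30a7, a transporter of the secretory pathway, was at 0.18. Slc30a7 had 859, 703 and 680.4 normalized counts in C28 replicates 1 to 3 and 681, 624 and 658 in DMSO replicates 1 to 3 (limma adjusted p 0.773, and 0.2 in the blocked fit). Slc30a9, named because it had the highest count of the list, averaged 2737 ± 264 with C28 and 2536 ± 332 with DMSO (SD, n = 3 each). Slc30a2, which loads zinc into vesicles, was at 139 ± 31.3 with C28 and 167 ± 32.2 with DMSO, the lowest fold of the list at 0.827. Slc30a8, the zinc transporter of insulin granules, and Slc30a10, known as a manganese exporter, had 0 reads in all 6 libraries.

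Of the 14 importers, 13 were tested and 0 passed in either limma fit, with 0 at an unadjusted p under 0.05 without the block, and 0 by edgeR or DESeq2 without a block. Their median log2 fold change was 0.06, with 7 of 13 above 0. In the blocked fit Slc39a4 (higher with C28), Slc39a8 and Slc39a10 (both lower) had unadjusted p-values of 0.00477, 0.035 and 0.0236 by limma. In that fit 3463 of 19054 genes lay under 0.05. Slc39a6, which had the highest count, averaged 12860 ± 407 with C28 and 13308 ± 980 with DMSO (SD, n = 3 each). Slc39a4, the importer of dietary zinc in the intestine, had 838, 348 and 370.03 normalized counts in C28 replicates 1 to 3 and 685, 299 and 304 in DMSO replicates 1 to 3. It was higher with C28 in 3 of 3 pairs and did not pass in limma (adjusted p 0.957, and 0.0759 with the block), though edgeR with the block called it (adjusted p 0.0357). In both groups replicate 1 stood above the others, the reverse of Slc39a10. Slc39a14, a carrier of zinc, iron and manganese, averaged 1757 ± 192 with C28 and 1833 ± 177 with DMSO, and Slc39a8, a carrier of zinc, manganese and cadmium, 685 ± 147 and 773 ± 173 in the same order.

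Copper, the other metal bound by metallothioneins, is carried by a separate set of proteins. Of 11 copper handling genes 10 were tested and 0 passed in either limma fit, with 0 at an unadjusted p under 0.05 without the block, and 0 by edgeR or DESeq2 without a block. The median log2 fold change was 0.03 and the range -0.16 to 0.17. The importer Slc31a1 averaged 1648 ± 254 with C28 and 1549.7 ± 214 with DMSO, and the exporting pump Atp7a 216 ± 24.6 with C28 and 211 ± 47.4 with DMSO (SD, n = 3 each). Sod1, the copper and zinc superoxide dismutase and the gene of the list with the highest count, averaged 7644 ± 272 and 7106 ± 466 in the same order. Its unadjusted p in the blocked fit was 0.0284 by limma, where 3463 of 19054 genes lay under 0.05.

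Outside metal transport, a list held 6 genes reported as MTF1 targets, chosen with earlier results of these data known and so not independent evidence. Of 5 tested, 1 rose without the block (Gclc) and 2 with it (Gclc and Ndrg1), where 0.121% and 2.55% of all genes rose, and the median log2 fold change was 0.31. Gclc, the catalytic subunit of the first enzyme of glutathione synthesis, is also induced by other oxidant-responsive factors. It had 5287, 5133 and 5196 normalized counts in C28 replicates 1 to 3 and 2910.3, 2953 and 3040.03 in DMSO replicates 1 to 3 (1.75-fold, adjusted p 0.00416 by limma). Ndrg1, a stress and hypoxia gene, had 1056, 1973 and 2346 with C28 and 785, 1714 and 1894 with DMSO. It was 1.24 times higher with C28 and passed with the block (adjusted p 0.0113 by limma, and 0.936 without). Its replicate 1 was low in both groups, as for Slc39a10. Csrp1, a LIM domain protein, and Selenow (Sepw1 in the table), a selenoprotein, had log2 fold changes of 0.07 and 0.02. Pgf, the placental growth factor, had 9.34, 18.2 and 12.3 normalized counts in C28 replicates 1 to 3 and 5.61, 14.3 and 5.74 in DMSO replicates 1 to 3. It was higher with C28 in 3 of 3 pairs, but the groups overlapped and it rested on 6 to 17 reads per library (log2 fold change 0.65, limma adjusted p 0.833, and 0.407 with the block). Slc40a1, the iron exporter ferroportin, had too few reads to be tested.

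Heavy metals such as cadmium induce heat shock and antioxidant genes as well as metallothioneins. A list of 10 such genes, assembled with their values in these libraries already known and so not independent evidence, had 7 that rose without the block and 10 with it, where 0.121% and 2.55% of all genes rose. In all 10 every C28 library was above every DMSO library, as in 8.16% of all genes. The smallest log2 fold change among these 10 was 0.76, for the HSP40 co-chaperone Dnajb1. Whether metal had a part in these changes was not tested. Txnrd1, a thioredoxin reductase and the gene of the list with the highest count, averaged 16723 ± 1771 with C28 and 8456 ± 504 with DMSO (SD, n = 3 each; 1.97-fold, adjusted p 0.0109 by limma).

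The heat shock genes of the list were Dnajb1 and the inducible HSP70 genes Hspa1a and Hspa1b, which are near-identical copies, so the division of reads between them is uncertain. Hspa1b had 737, 810.2 and 489 normalized counts in C28 replicates 1 to 3 and 33.7, 51.4 and 43.0 in DMSO replicates 1 to 3 (log2 fold change 3.95). Hspa1a averaged 129 ± 49.6 with C28 and 8.17 ± 5.09 with DMSO (SD, n = 3 each; log2 fold change 3.88). Both rose without the block, as did Hmox1, which encodes the heme-degrading enzyme heme oxygenase 1. Hmox1 had 9459, 6455 and 6475.5 normalized counts in C28 replicates 1 to 3, against 1013, 1358 and 1239 in DMSO replicates 1 to 3 (log2 fold change 2.62, adjusted p 0.00416 by limma). Osgin1, an oxidative stress gene, and Srxn1, which encodes sulfiredoxin, also rose without the block, with log2 fold changes of 2.90 and 2.09. Slc7a11, Gclm and Nqo1 did not pass in limma without the block and rose with it, and DESeq2 without a block called all 10. Slc7a11, the cystine importer, had 3673, 6593 and 6590 normalized counts in C28 replicates 1 to 3 and 905, 1941 and 2028 in DMSO replicates 1 to 3. Its replicate 1 was low in both groups, as for Slc39a10 and Ndrg1, and its log2 fold change was 1.83 (limma adjusted p 0.172, and 2.02e-07 with the block). Gclm, the modifier subunit that partners Gclc, and Nqo1, a quinone reductase, had log2 fold changes of 0.93 and 1.41.

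**Figure D3:**
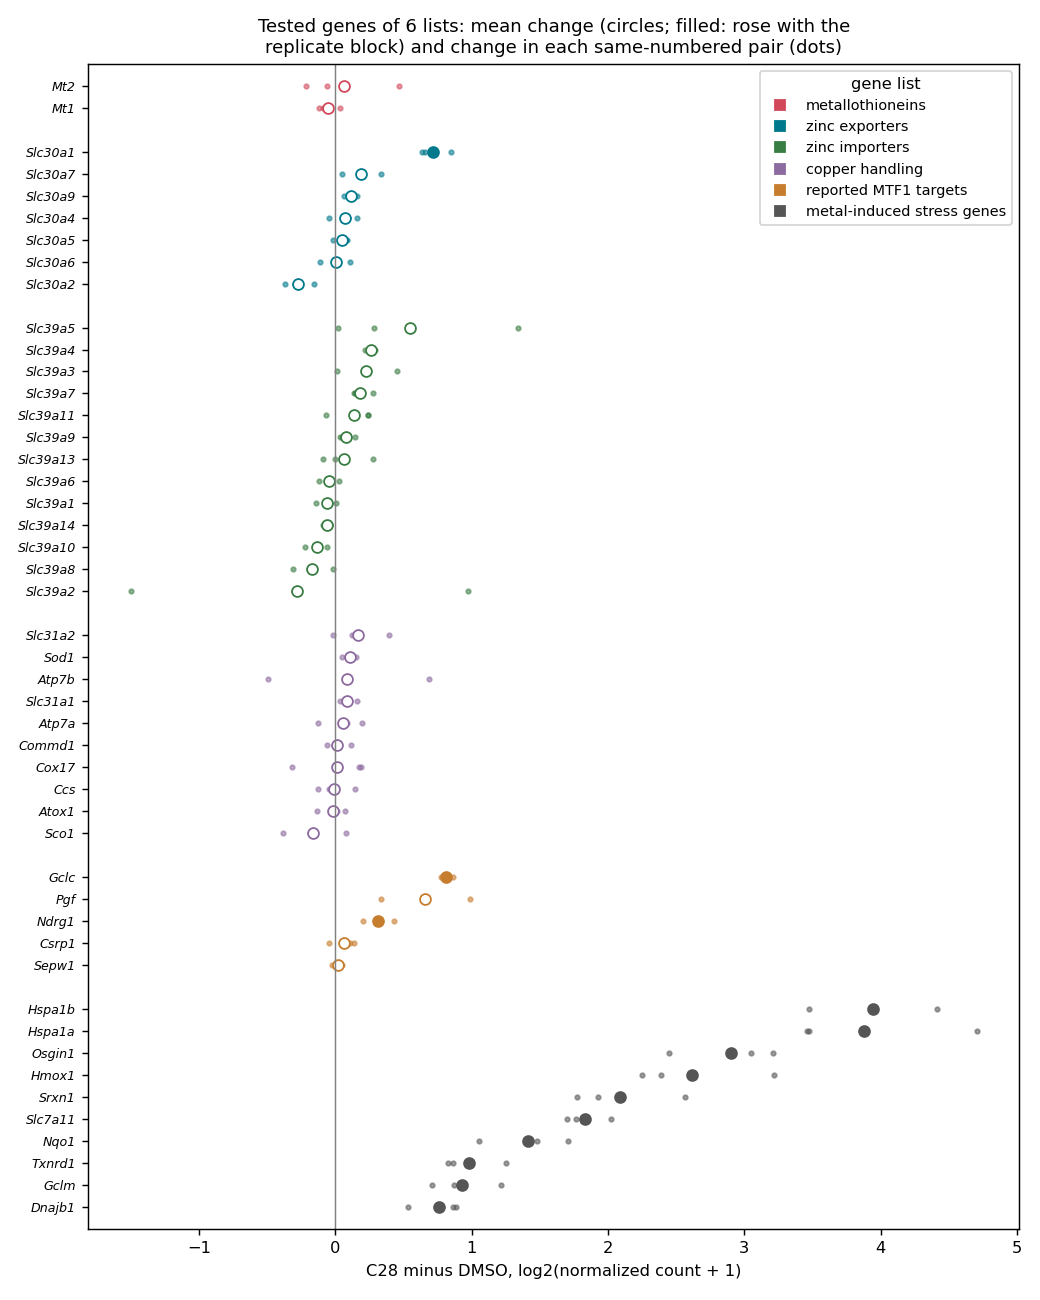
Difference between C28 and DMSO on the log2(normalized count + 1) scale (horizontal axis) for every tested gene of 6 lists; circles are means, filled where the gene rose with the replicate block, and dots are the 3 same-numbered pairs. Slc30a1 at 0.71 is the filled circle among the zinc transporters, and both metallothioneins lie near 0. The 10 genes listed as metal-induced stress genes, chosen with their values known, range from 0.76 to 3.95.

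Genes with a profile like that of Slc30a1 were ranked by the root mean square difference between gene-centred log2 profiles over the 6 libraries, among 10567 genes averaging at least 50 normalized counts. The nearest 5 were Six4 (difference 0.0453), Slc19a2 (0.0698), Zswim4 (0.0775), Dnajb14 (0.0801) and Ubxn4 (0.0848). Slc19a2, a thiamine transporter, had 1959, 1498 and 1467 normalized counts in C28 replicates 1 to 3 and 1245, 909.7 and 918 in DMSO replicates 1 to 3. Like Slc30a1 it was highest in replicate 1 of each group and higher with C28 in every pair. The 5 genes nearest to Mt1 were Pomt2 (0.0105), Wbscr22 (0.0162), Scaf8 (0.0185), Slc35c2 (0.0206) and Cox15 (0.0208), and their libraries of replicate 1 were likewise the lowest of each group. Likeness over 6 libraries is a description, since the libraries share treatment and replicate.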

How the data were processed

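RNA was measured in 3 C28 and 3 DMSO libraries, grouped and numbered by sample title. The deposited table holds values on a signal scale, gene read counts that the authors divided by 1 size factor per library: dividing by the smallest step of each library gave whole reads, within 0.01, for 100% of values. The authors' own log2 fold change is deposited too, with its adjusted p-value. Per the submitters' processing notes Bowtie2, Cufflinks 2.2.1 and build mm9 were used; sources used here do not name the counting tool or its use of strand. The H3K27ac peak lists are on mm9 and were not used here, for want of gene positions on that build.

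Since the values are normalized, the planned edgeR test gave way to limma, as the design allowed: limma 3.58.1 (R 4.3.3, intensity trend) was fitted to log2(value + 1) of 19054 genes that reached 1 in 3 or more of the 6 libraries, keeping 1 row per gene name, the one with the highest mean. Such fold changes understate the change of low genes. Alternatives used edgeR 4.0.16 and DESeq2 1.42.0 on the recovered reads, tested like limma on simulated data. There DESeq2 made more false calls than limma. The simulated data held no replicate effect, so they could not check how the blocked fits handle one. Deviations from group means over 10572 genes correlated at 0.84, 0.68 and 0.71 between same-numbered libraries, the highest value for each library. C28 replicate 3 also correlated with DMSO replicate 2 (0.54) and C28 replicate 2 with DMSO replicate 3 (0.41). The pairing is taken from the data, since no label states it. Counts were not corrected for gene length, so levels of different genes are not compared. Named genes were the 5 genes, list genes past the threshold in either limma fit and the gene of each list with the highest count; others named were chosen after their values were seen. Members and lists were chosen with earlier results of these data known. Intervals marked 95% are from limma. Promoters came from RefSeq.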

Additional observations from a re-analysis of the deposited data

How the results depend on the processing

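Slc30a1 kept its direction in 18 alternatives, with log2 fold changes from 0.56 to 0.81, and passed in 6 of them: DESeq2 (0.725), limma with the replicate block (0.713), the block with replicate 1, 2 or 3 of both arms left out (0.647, 0.741 and 0.751) and edgeR with the block (0.721, added after the data were seen). The block changed no call of the other 4 genes. Slc30a1 did not pass without a block when 1 library was left out (adjusted p 0.21 to 0.755 by limma). Mtf1 kept its direction, with log2 fold changes from 0.05 to 0.20, and did not pass. The sign of Mt1 turned without C28 replicate 1 (0.0348), and leaving out 1 library gave -0.118 to 0.0348. That of Mt2 turned without C28 replicate 3 (-0.101) and, with the block, without replicate 3 of both arms (-0.137), and leaving out 1 library or pair gave -0.137 to 0.214. That of Slc39a10 turned without C28 replicate 1 (0.224), DMSO replicate 2 (0.00841) or DMSO replicate 3 (0.0368), in a range from -0.457 to 0.224; with the block it stayed below 0 without replicate 1, 2 or 3 of both arms (-0.0957, -0.139 and -0.177). The cause was not tested. None of Mt1, Mt2, Mtf1 or Slc39a10 passed in any alternative run.

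Over all genes 23 rose and 3 fell. DESeq2 gave 122 and 64, limma without a trend 46 and 5, the replicate block 485 and 429, and edgeR with the block 716 and 605. Leaving out 1 library without a block gave 0 to 21 that rose and 0 to 2 that fell (0 and 0 without C28 replicate 2, where limma put 1204 genes at an unadjusted p under 0.05). With the block and a pair left out, 438, 42 and 142 rose and 415, 8 and 65 fell without replicates 1, 2 and 3. Of the list genes 8 rose, against 4 without a trend, 13 with the block, 14 with edgeR and the block, 14 with the block without replicate 1, and 0 to 6 without 1 library. The promoter window of 250 bases before the start alone held 1 metal response element in Mt1 and 1 in Slc30a1. The planned peak settings were not run. Other filters and pseudocounts changed no call of the 5 genes. Mt2 rests on 136 to 213 reads per library, which limits its precision.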
